A study of Mus musculus with 4 samples.

Results

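Serpins are a family of protease inhibitors, and 62 of the 22222 genes in the deposited table belong to it by name. They were chosen by symbol, as every gene whose symbol starts with Serpin other than Serping1. The family itself was selected on measured values, since it was picked after the difference between the groups below had been seen, and Serpinb8 and Serpinb6c had been named among the genes lower at 1 week. Differences between the groups are therefore given as descriptions of these members. The letter in a symbol gives the clade: 25 genes are in clade A, 27 in clade B, 3 in clade E, 2 each in clades F and I, and 1 each in clades C, D and H.

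The samples were 4 RNA-seq libraries of sorted cells from mouse keratoacanthomas, skin tumours that can regress by themselves. All mice received 20 weeks of DMBA, a carcinogen, and all libraries are from cells sorted for Tomato, a fluorescent label, and P-cadherin, a surface protein of basal keratinocytes. In 2 mice the tumours were taken while DMBA went on (on DMBA, week 0), and in 2 other mice they were taken 1 week after it was stopped. The labels call the cells Epi and give each library its own mouse, A to D; they do not give the strain, the driver of the Tomato label or the number of tumours per mouse. Levels are scaled CPM, a gene's reads relative to a scaled library size, on which 1 read was worth 0.119 to 0.179 and the libraries held 5551937 to 9678682 reads.

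An inhibitory serpin carries an exposed loop that a protease cuts as if it were a substrate. The cut serpin then changes shape and traps the protease, so each molecule acts once. Clade A and E serpins are mostly secreted, clade B serpins mostly stay inside the cell, and a few members such as Serpinh1 and Serpinb5 do not inhibit proteases. In skin the clade B genes are known from keratinocytes, while the secreted members are known from fibroblasts, blood vessels and inflamed tissue.

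The labelled cell type, epithelial, was not carried equally by the libraries. The summed level of 12 basal keratinocyte genes was 49513 and 998 scaled CPM in on-DMBA replicates 1 and 2 and 5918 and 4612 in 1-week replicates 1 and 2, and that of 14 suprabasal genes was 28576, 139.8, 1585 and 1358 in the same order. In the same order the sum of 12 fibroblast genes was 185, 42256, 48573 and 51129, that of 12 macrophage and monocyte genes 16.3, 26480, 11156 and 16531, and that of 10 endothelial genes 7.96, 267, 904 and 1874. The 10 pericyte and smooth muscle genes summed to 300.5, 307, 939 and 1761. The near-equal sums on DMBA hide that on-DMBA replicate 1 was the lowest library for 8 of the 10. Notch3 alone gave 195 of its sum, against 61.2 in on-DMBA replicate 2. Sums were also taken of 10 neutrophil, 9 measured T and NK cell, 10 mast cell, 6 melanocyte and 9 measured plasma genes. They were between 0.712 and 63.1 in on-DMBA replicate 1 and between 21.9 and 378.5 in the other libraries. Outside on-DMBA replicate 1 the plasma sum was nearly all Hp (228 on DMBA, 260 and 377 at 1 week). The other plasma genes stayed at 1.44 scaled CPM or below. Cd4 likewise made up most of the T and NK cell sum in those libraries. The sum of 8 Schwann cell genes was 186, 226, 71.9 and 78.4. Krt14, the keratin gene of basal cells, was at 26654 and 202 on DMBA and at 2644 and 1944 at 1 week, and Cdh3, the gene of the sorting marker P-cadherin, at 325 and 3.23 on DMBA and at 42.8 and 30.4 at 1 week. The keratinocyte sums were highest, and the fibroblast, leukocyte and endothelial sums lowest, in on-DMBA replicate 1. The part of cell makeup in the results that follow was not tested, and in sorted bulk cells fewer cells of a type and less RNA per cell cannot be told apart.

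**Figure D1:**
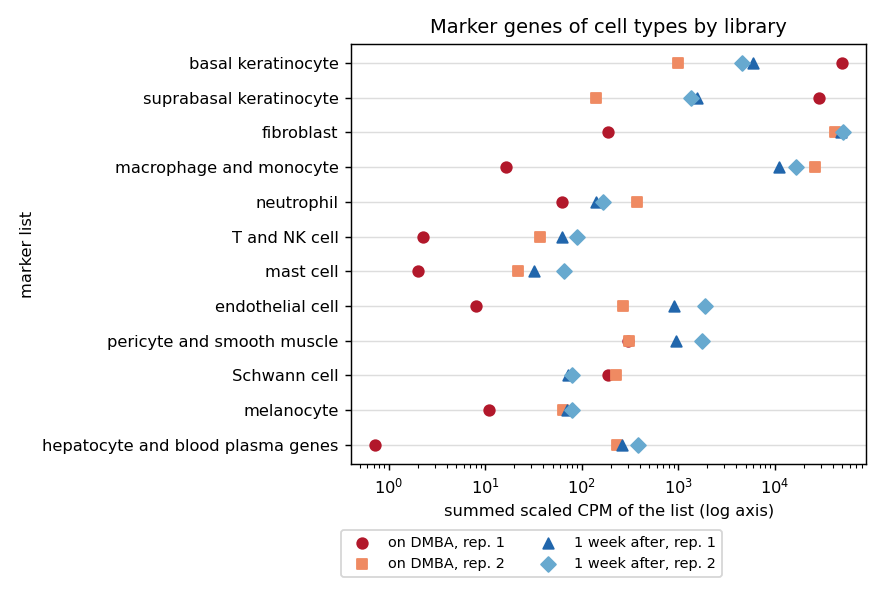
Summed scaled CPM of each marker list (log axis) in the 4 libraries, 1 point per library. On-DMBA replicate 1 is far to the right in both keratinocyte rows (49513 for basal genes) and far to the left in the fibroblast row (185) and the macrophage row (16.3).

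Of the 62 members, 29 had at least 1 scaled CPM in at least 2 libraries and were tested together with all 15419 genes that passed this filter. With all 4 libraries, limma called 0 of the 29 at an adjusted p under 0.05, and 0% of all genes tested. An unadjusted p under 0.05 was found for 382 genes and 4 members, Serpina3g and Serpina3m higher and Serpinb6c and Serpinb8 lower, and every adjusted p of a member was 1 when rounded. Run on recovered reads, edgeR called 0 members (0% of all genes), and DESeq2 also called 0 members (0.123% of all genes). In edgeR 2 members had an unadjusted p under 0.05, beside 229 higher and 42 lower among all 15419 genes. In DESeq2 5 members did, beside 386 higher and 178 lower among all genes. Of the members tested, 8 were higher at 1 week with no overlap between the groups (14% of all genes tested) and 2 were lower with no overlap (9.14% of all genes tested). The median log2 difference, 1 week minus on DMBA, was 0.31 over the members tested and -0.02 over all genes tested.

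The members, like all genes tested, differed more between the mice on DMBA than between the mice at 1 week. The absolute log2 difference between the replicates had a median of 1.69 on DMBA and 0.81 at 1 week over the members tested, against 1.02 and 0.51 over all genes tested. On DMBA, 12 of the 29 differed by more than 4-fold between the replicates (41.4%, against 22.2% of all genes tested), and at 1 week 0 did (2.3% of all genes tested). On-DMBA replicate 1 was the lowest library for 17 members (58.6%, against 37.5% of all genes) and the highest for 9 (31%, against 41.7%). The 17 included all 7 tested members of clades D, E, F, H and I, 6 of 9 in clade A and 4 of 13 in clade B.

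**Figure D2:**
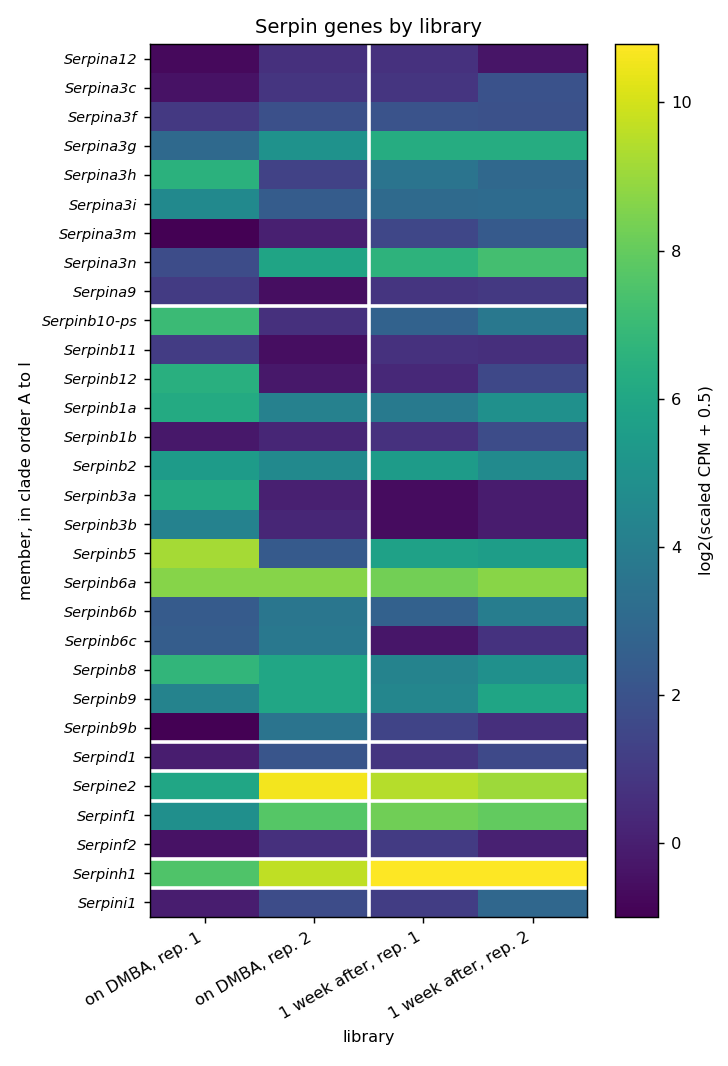
Level of 28 tested members and of Serpinb3a and Serpinb3b in each library, as log2(scaled CPM + 0.5), with white lines between clades and between the groups. Colours are to be read along a row, since levels are not corrected for gene length. Serpinb5, Serpinb12, Serpinb10-ps and Serpinb3a are brightest in on-DMBA replicate 1, and Serpinh1 is brightest in both 1-week libraries.

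Serpinh1 encodes a chaperone of the endoplasmic reticulum that binds folding collagen and inhibits no protease. It was at 186 and 814 scaled CPM on DMBA and at 1734 and 1769 at 1 week. Both 1-week libraries were above both on-DMBA libraries, and they differed from each other by less than 0.03 on the log2 scale. The log2 difference was 2.17 (SE 0.96, adjusted p = 1 in limma), and the mean at 1 week was 3.50 times the mean on DMBA. Of 22 genes for collagen chains and their folding enzymes, 0 passed in limma, edgeR or DESeq2 (1 at an unadjusted p under 0.05 in each), 11 were higher in both 1-week libraries and 1, Crtap, was lower (14% and 9.14% of all genes tested), and their median log2 difference was 1.43. The collagen chain gene Col3a1 was at 68.5 and 20658 on DMBA and at 20761 and 27662 at 1 week, so on-DMBA replicate 2 was close to the 1-week libraries there. Col1a2 was at 38.5 and 10606 on DMBA and at 14287 and 12903 at 1 week, and Col1a1 at 42.9 and 7535 on DMBA and at 9360 and 6131 at 1 week. Serpinh1 in on-DMBA replicate 2 was 4.37 times its level in replicate 1, a smaller step than that of the 3 collagens.

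Clades E and F hold secreted serpins of the plasminogen system and of the extracellular matrix. Serpinf1, which encodes the secreted antiangiogenic factor PEDF, was at 28.7 and 207 on DMBA and at 304 and 244 at 1 week, with a log2 difference of 1.81 (SE 1.00). Its groups did not overlap, although on-DMBA replicate 2 was near the lower 1-week library.

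Serpine2, a cell-surface inhibitor of thrombin and of plasminogen activators also called protease nexin, overlapped between the groups. It was at 63.2 and 1508 scaled CPM on DMBA and at 718 and 537 at 1 week, so the on-DMBA mice held both its lowest and its highest value, 23.9-fold apart. Its log2 difference of 1.00 had an SE of 1.53, and it was below 0 in edgeR and DESeq2. Serpinf2, which encodes the plasmin inhibitor antiplasmin, stayed between 0.237 and 1.56 in all libraries. Serpine3 was at 3 reads or fewer in every library.

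Among the clade A genes, which are secreted or derived from secreted inhibitors, the Serpina3 series carried nearly all reads. Mice have many near-identical Serpina3 copies where humans have a single gene, so reads may be shared between them and their single values are uncertain. Serpina3n, an acute-phase inhibitor known to act on granzyme B and leukocyte elastase, was at 2.85 and 58.3 scaled CPM on DMBA and at 99.1 and 154 at 1 week. Serpina3g, an inhibitor of serine proteases and of lysosomal cathepsins in haematopoietic cells, was at 7.72 and 31.4 on DMBA and at 79.1 and 78.2 at 1 week. For both genes the 1-week libraries were above both on-DMBA libraries and on-DMBA replicate 1 was the lowest. The log2 difference was 3.14 (SE 1.38) for Serpina3n and 2.29 (SE 0.78) for Serpina3g. Among the limma fits of all 4 libraries, Serpina3n passed only in the one with the replicate number as a block (adjusted p = 0.0262), although the numbers mark different mice.

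Serpina3h and Serpina3i ran the other way between the mice on DMBA. Serpina3h, a transcribed pseudogene in RefSeq, was at 91.8 and 1.97 scaled CPM on DMBA and at 11.3 and 7.42 at 1 week. Serpina3i was at 23.4 and 4.85 on DMBA and at 7.97 and 8.27 at 1 week. In both, on-DMBA replicate 1 was the highest library and replicate 2 the lowest, so the groups overlapped. The low members Serpina3f (1.42 and 3.23 on DMBA, 3.59 and 3.28 at 1 week) and Serpina3m (0 and 0.54 on DMBA, 2.34 and 4.56 at 1 week) were higher in both 1-week libraries, and Serpina3c was at 0.24 to 3.42 with overlap. These 7 are the tested Serpina3 genes, and the only other tested clade A members, Serpina9 and Serpina12, stayed under 2 scaled CPM.

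Clade B is split in the mouse genome between 12 members on chromosome 1 and 15 on chromosome 13, by RefSeq's annotation of GRCm38.p6. On chromosome 1 they follow each other in the order Serpinb5, Serpinb12, Serpinb13, Serpinb3a, Serpinb3d, Serpinb3b, Serpinb3c, Serpinb11, Serpinb7, Serpinb2, Serpinb10-ps and Serpinb8. Serpinb10-ps was matched through the synonyms of Serpinb10, which that annotation lists as protein coding. These neighbours are the serpins best known from stratified epithelia.

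A sequence feature shared by many of these neighbours is shown first. The rule did not use it, but it was picked with the expression values already seen. The letters TGANTCA contain the AP-1 site TGACTCA but also allow A or T in the middle. These letters lie in the 250 bases before the start of 7 of the 11 chromosome 1 members that have a promoter window. They are in 12 of the 61 such windows of 52 members (19.7%), which belong to 11 members, and in 6.75% of all 32851 windows. The other 4 members are Serpina1a to Serpina1d, which are near copies of each other. Among the chromosome 1 members the AP-1 site itself, TGACTCA or TGAGTCA on the other strand, is in the windows of Serpinb7 and Serpinb8 alone, and the other 5 with a match have A or T in the middle. The windows of Serpinb3a to Serpinb3d hold no match, and Serpinb3a (71.6 scaled CPM) and Serpinb3b (17.9) were high in on-DMBA replicate 1 alone. The windows below hold the match, in capitals, with up to 20 bases on each side, in the gene's direction and with GRCm38.p6 coordinates. They are shown for 5 of the 7, which are described in full further on; the other two, Serpinb7 and Serpinb11, were low in every library.
Serpinb5, chr1:106861015-106861061, + strand: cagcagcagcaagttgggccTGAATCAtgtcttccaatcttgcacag
Serpinb12, chr1:106934384-106934430, + strand: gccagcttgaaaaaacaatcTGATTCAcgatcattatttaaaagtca
Serpinb2, chr1:107511309-107511355, + strand: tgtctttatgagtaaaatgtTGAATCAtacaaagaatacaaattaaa
Serpinb10, chr1:107528929-107528975, + strand: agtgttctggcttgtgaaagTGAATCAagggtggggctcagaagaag
Serpinb8, chr1:107589963-107590005, + strand: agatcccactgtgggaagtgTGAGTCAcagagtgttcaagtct
The match in Serpinb8 begins 23 bases before the start and that in Serpinb5 140 bases before it. A match describes the letters only, and the deposited reads were aligned to another build, mm9. The motif was picked after 12 motifs had been searched on both strands, with the expression values already seen. The other 11 are given by their share of the 61 member windows and of all windows. These were TGACTCA (9.84% and 4.46%, a subset of the first), TTCNNGAA (6.56% and 7.17%), GAANNTTC (4.92% and 6.69%), CCGGAAG (3.28% and 6.91%), GTCTAGAC (0% and 0.167%), CAGGTG (21.3% and 17.2%), TATAAA (27.9% and 12.4%), GGGCGG (11.5% and 32.7%), TTCNNNGAA (16.4% and 7.02%), GGGNTTTCC (4.92% and 1.46%) and CNNNGGAA (32.8% and 47.6%).

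Serpinb5, which encodes maspin, a serpin of epithelial cells that inhibits no protease, was at 581 and 4.49 scaled CPM on DMBA and at 53.6 and 46.5 at 1 week. The 1-week libraries were close to each other and lay between the mice on DMBA, which were 129-fold apart. Its neighbour Serpinb12, an inhibitor of trypsin-like proteases, was at 86 and 0.36 on DMBA and at 0.78 and 2.42 at 1 week. Serpinb10-ps was at 130 and 1.08 on DMBA and at 5.94 and 12.6 at 1 week. All 3 were highest in on-DMBA replicate 1 and lowest in on-DMBA replicate 2, which are also the libraries with the highest and the lowest keratinocyte sums.

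Serpinb3a and Serpinb3b are mouse counterparts of the squamous cell carcinoma antigens, inhibitors of cathepsins and of serine proteases. Serpinb3a was at 71.6 and 0.54 scaled CPM on DMBA and at 0.16 and 0.43 at 1 week, and Serpinb3b at 17.9 and 0.72 on DMBA and at 0.16 and 0.43 at 1 week. Each exceeded 1 scaled CPM in on-DMBA replicate 1 alone and so was not tested. In the other libraries Serpinb3a had 3 reads or fewer, and Serpinb3b had 4, 1 and 3 reads. The copies Serpinb3c and Serpinb3d were both at 1.78 in on-DMBA replicate 1 and at 0 to 0.72 elsewhere. In contrast to Serpinb5 and Serpinb10-ps, the Serpinb3 genes were near 0 also in the 1-week libraries. Serpinb12 was low there too (0.78 and 2.42). Both keratinocyte sums at 1 week were above those of on-DMBA replicate 2 and far below those of replicate 1. For the suprabasal genes they were 1585 and 1358 at 1 week, against 28576 in on-DMBA replicate 1. Most of these 1-week sums came from Krt6a (767 and 492) and Dsp (457 and 331). In the same list Krt10 was at 2026 and 3.23 on DMBA and at 3.59 and 5.42 at 1 week. Krt1 was at 878 and 4.13 on DMBA and at 9.22 and 5.71 at 1 week, and Sbsn at 200 and 2.51 and at 9.85 and 12.7. The part of cell makeup in the Serpinb3 and Serpinb12 levels was not tested.

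Not every gene of the cluster was high in on-DMBA replicate 1. Serpinb13, between Serpinb12 and Serpinb3a, stayed between 0.14 and 0.78 scaled CPM, and Serpinb7, next to Serpinb2, between 0 and 0.47. Serpinb11 was at 1.66 and 0.18 on DMBA and at 1.09 and 1.00 at 1 week. Serpinb2, an inhibitor of urokinase that is induced by stress and inflammation, was at 43.6 and 23.5 on DMBA and at 43.6 and 24.7 at 1 week. Its highest and lowest libraries were 1.85-fold apart and each group held 1 higher and 1 lower library. Its log2 difference was 0.03 (SE 0.61), so its groups did not differ beyond the spread between mice.

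**Figure D3:**
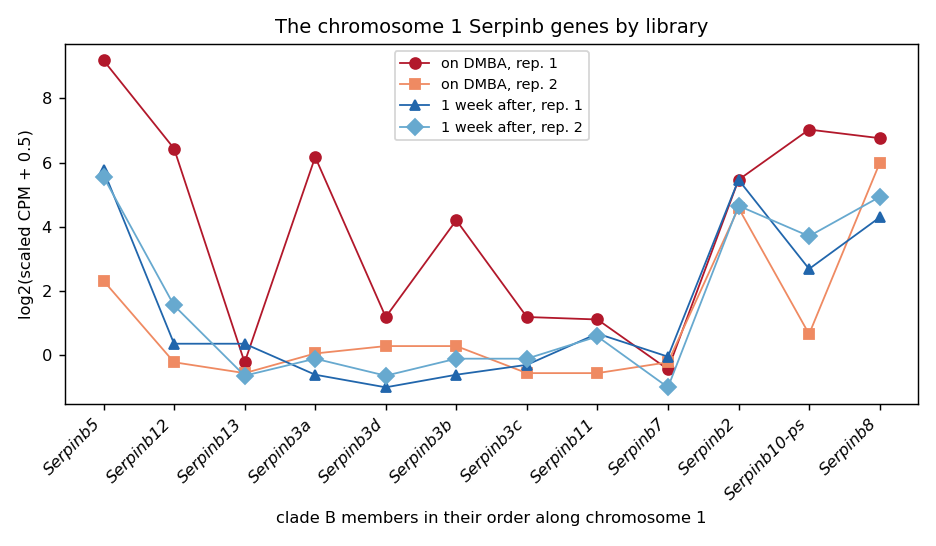
Level of the 12 clade B members of chromosome 1, as log2(scaled CPM + 0.5), in their order along the chromosome, with 1 line per library that serves only to guide the eye. On-DMBA replicate 1 peaks at Serpinb5, Serpinb12, Serpinb3a, Serpinb3b and Serpinb10-ps, while the libraries come together at Serpinb13, Serpinb7 and Serpinb2.

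Serpinb8 and Serpinb6c were the tested members that were lower in both 1-week libraries. Serpinb8, a cytoplasmic serpin known to inhibit furin and to be needed for cohesion between keratinocytes, was at 108 and 62.6 scaled CPM on DMBA and at 19.1 and 29.9 at 1 week. The mice on DMBA were within 1.72-fold of each other, and their mean was 3.48 times that at 1 week. The log2 difference was -1.76 (SE 0.57), being -2.15 against on-DMBA replicate 1 alone and -1.37 against replicate 2 alone. Serpinb6c, a mouse copy in the Serpinb6 series, was at 4.99 and 12.7 on DMBA and at 0.31 and 1.14 at 1 week, where it had 2 and 8 reads. Its log2 difference was -2.88 (SE 0.85), and it was the larger against on-DMBA replicate 2. Since the series has close copies, its reads may be shared with them.

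The main gene of that series, Serpinb6a, an intracellular inhibitor of cathepsin G and trypsin-like proteases, was at 399.9 and 398 scaled CPM on DMBA and at 307 and 416 at 1 week. Its 4 libraries lay within 1.36-fold of each other, the narrowest range of the 18 members given with full values. Its log2 difference was -0.16 (SE 0.59). Serpinb6b was at 4.75 and 12 on DMBA and at 5.78 and 15.5 at 1 week.

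The remaining chromosome 13 genes included inhibitors of leukocyte proteases. Serpinb1a, an inhibitor of neutrophil elastase and cathepsin G, was at 72.4 and 17.4 scaled CPM on DMBA and at 14.1 and 29.4 at 1 week. Serpinb9, the inhibitor of granzyme B that protects cells from their own granules, was at 18.9 and 61.9 on DMBA and at 21.1 and 59.9 at 1 week. Serpinb9b was at 0 and 10.9 on DMBA and at 2.19 and 1.00 at 1 week. In all 3 the groups overlapped. Serpinb1b, a low copy, was at 0.36 and 0.72 on DMBA and at 1.09 and 2.85 at 1 week, without overlap. The Serpinb1 and Serpinb9 series are families of close copies, so their single values are uncertain too.

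**Figure D4:**
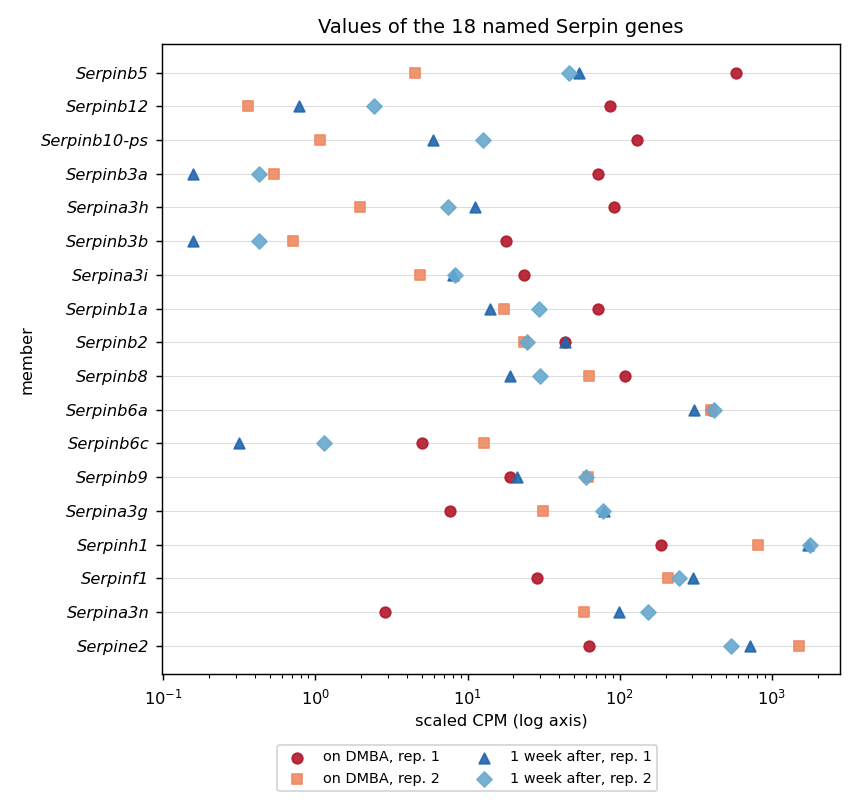
Scaled CPM (log axis) of the 18 members given with full values, 1 point per library, ordered by the difference between the on-DMBA replicates. On-DMBA replicate 1 is rightmost for the upper genes down to Serpinb1a and leftmost from Serpinb9 down, while Serpinb8 and Serpinb6c have both on-DMBA points to the right of both 1-week points.

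How a member differed at 1 week depended for most genes on which mouse on DMBA it was set against. Without on-DMBA replicate 1, limma called 2 members higher at 1 week (2.35% of all genes tested) and 1 lower (0.999%). These were Serpinb5 (log2 difference 3.34), Serpinb10-ps (2.54) and, lower, Serpinb6c (-3.52, adjusted p = 0.0209). Without on-DMBA replicate 2, 7 were higher (14.3% of all genes tested) and 7 lower (10%). The 7 higher included Serpina3g, Serpina3m, Serpina3n, Serpine2, Serpinf1 and Serpinh1, and the 7 lower were Serpina3h, Serpina3i, Serpinb1a, Serpinb5, Serpinb8, Serpinb10-ps and Serpinb12. Serpinb5 and Serpinb10-ps were thus called in opposite directions against the different mice, with log2 differences of -3.53 and -3.83 against replicate 1. In these fits a lone library is assumed to vary like the 1-week group.

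For 8 of the 16 tested members given with full values, the difference without on-DMBA replicate 1 had the opposite sign to that with all libraries. These were Serpina3h, Serpina3i, Serpinb10-ps, Serpinb12, Serpinb1a, Serpinb5, Serpinb9 and Serpine2. Serpine2 was 3.29 higher at 1 week than in on-DMBA replicate 1 and 1.28 lower than in replicate 2 on the log2 scale. The members whose sign held against either mouse on DMBA included Serpinh1 (3.23 and 1.10 against replicates 1 and 2), Serpina3n (5.21 and 1.08), Serpina3g (3.27 and 1.31), Serpinf1 (3.22 and 0.40), Serpinb8, Serpinb6c and Serpinb6a. For the first 4 of these the difference was smaller against on-DMBA replicate 2, the library with the higher fibroblast sum.

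**Figure D5:**
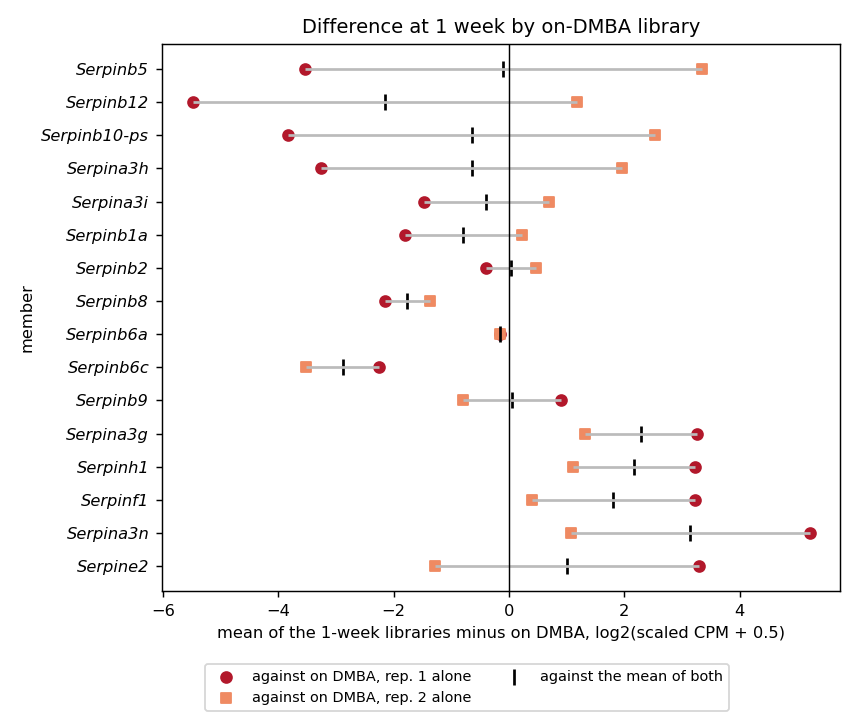
Mean of the 1-week libraries minus each on-DMBA library, and minus their mean, for the 16 tested members with full values, as differences of log2(scaled CPM + 0.5). Points on both sides of 0 mark members whose direction depends on the mouse on DMBA, such as Serpinb5 (-3.53 and 3.34), while Serpinb8 and Serpinb6c are below 0 and Serpinh1 and Serpina3g above it for both.

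Genes for proteases that serpins inhibit, for their receptors and for other inhibitors gave no call in limma or edgeR and 1 in DESeq2, the complement protease gene Masp1. Masp1 was at 0.12 and 0.72 scaled CPM on DMBA, or 1 and 4 reads, and at 33.9 and 17.4 at 1 week. Of 23 tested serine protease genes, 0 passed in limma (3 at an unadjusted p under 0.05), 4 were higher in both 1-week libraries and 1 was lower (against 14% and 9.14% of all genes tested, here and for the lists that follow), with a median log2 difference of 0.17 (-0.02 over all genes tested). Plau, which encodes urokinase, was at 273 and 345 scaled CPM on DMBA and at 216 and 377 at 1 week, with overlap. Plat, the tissue plasminogen activator, was at 2.14 and 322 on DMBA and at 357 and 456 at 1 week, and so was low in on-DMBA replicate 1 alone. Htra1, a secreted serine protease, was at 370 and 76.1 on DMBA and at 403 and 299 at 1 week.

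Of 14 tested cathepsin and caspase genes, 0 passed (0 at an unadjusted p under 0.05) and 2 were higher without overlap, with a median log2 difference of 0.94. The lysosomal cathepsin genes Ctsb and Ctss were at 578 and 4358 and at 0.83 and 2311 on DMBA, and at 2558 and 2706 and at 1480 and 2264 at 1 week. Ctsd, the aspartic cathepsin, was at 1071 and 2945 on DMBA and at 1095 and 1527 at 1 week. All 3 were lowest in on-DMBA replicate 1 and highest in on-DMBA replicate 2.

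Of 16 receptors and cofactors, 0 passed (3 at an unadjusted p under 0.05), 4 were higher and 2 lower without overlap, and the median log2 difference was 0.26. Lrp1, the endocytic receptor that clears serpin-protease complexes, was at 583 and 2281 scaled CPM on DMBA and at 2066 and 2024 at 1 week. The perlecan gene Hspg2 was at 169 and 1226 on DMBA and at 1197 and 1179 at 1 week. The ribosomal protein gene Rpsa, listed here as a laminin receptor, was at 2104 and 520.3 on DMBA and at 799 and 992 at 1 week. Of 21 tested non-serpin inhibitors, 0 passed (2 at an unadjusted p under 0.05), with 5 higher and 0 lower without overlap and a median log2 difference of 0.09. BC100530, a stefin-like cysteine protease inhibitor, was at 1807 and 11.7 on DMBA and at 53.6 and 25.1 at 1 week, an order of libraries like that of Serpinb5. The cystatin gene Cst3 was at 117 and 726 on DMBA and at 245 and 347 at 1 week, and the metalloproteinase inhibitor gene Timp2 at 25.8 and 326 on DMBA and at 293 and 296 at 1 week.

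The rest of the family was low. Of the 33 members not tested, the 31 other than Serpinb3a and Serpinb3b reached at most 3.21 scaled CPM, which was Serpina3b in on-DMBA replicate 1. In 18 members no library had more than 3 reads. The untested genes included those for inhibitors made mainly by the liver, such as Serpinc1 for antithrombin (0.24 and 0.36 on DMBA, 1.09 and 0.71 at 1 week), Serpina1a to Serpina1e for the antitrypsins (at most 1.25) and the hormone carriers Serpina6 and Serpina7 (at most 0.54). Serpind1, the gene for heparin cofactor, was at 0.475 and 3.77 on DMBA and at 1.25 and 2.57 at 1 week, and Serpini1, the gene for neuroserpin, at 0.475 and 2.87 on DMBA and at 1.72 and 7.27 at 1 week. A floor of 3 reads is 0.356 to 0.538 scaled CPM and covers counting error only, so lower levels were not detectable at this depth.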

How the data were processed

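For the 4 libraries the authors deposited a normalised signal in 1 table of 22222 genes. Per the submitters' processing notes, CASAVA 1.8.2, TopHat2 2.1, HTSeq and edgeR 3.2.3 were named, without role, with the mm9 build; no source used here gives the counting annotation or the strand setting. The deposited signal is called CPM, but the columns sum to 867697 to 1149290, so it is named scaled CPM. A library-specific step divided 100% of the values into whole reads (tolerance 0.01 reads), and these were used as recovered reads. Per the labels, RNA was depleted of ribosomal RNA and prepared with a strand-marking protocol.

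The filter required 1 scaled CPM in 2 or more libraries and left 15419 genes. On these, limma 3.58.1 (R 4.3.3; variance trend) compared log2(scaled CPM + 0.5), with two-sided p-values adjusted by Benjamini and Hochberg over the 15419 genes; calls needed an adjusted p under 0.05. The scale understates differences of low genes. edgeR 4.0.16 (quasi-likelihood) and DESeq2 1.42.0 were run on the recovered reads. An exact permutation of 2 against 2 cannot give p under 0.333. The fits were also run on simulated counts in which the mice of a group shared the same profile. That run held no library as unlike its replicate as on-DMBA replicate 1, and so it does not bear on such a library.

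The members and lists were chosen with earlier results of these data known. Members are named with full values if their mean was at least 10 scaled CPM, or if the groups did not overlap and the higher group's mean was at least 5 (19 members, of which 1 is not reported here); low members and genes of the other lists (the 3 with the highest mean; marker lists as sums, with Krt14 and Cdh3) are given beside them, and Serpinb6b, Serpinb11, Crtap, Masp1 and the tested low members were named after their values were seen. Promoter windows come from RefSeq (GRCm38.p6), matched by symbol or synonym for 52 of 62 members. Mice differ between all libraries, and replicates 1 and 2 of the groups are not pairs.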

Additional observations from a re-analysis of the deposited data

How the results depend on the processing

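With all 4 libraries, 0 Serpin members were called under either other pseudocount, either other filter, median ratio scaling, plain CPM, eBayes without the trend, edgeR or DESeq2. Leaving out 1 library at a time gave 0 to 14 called members, above 0 only without an on-DMBA library, and the median log2 difference was 0.40 to 0.94. Members whose groups did not overlap (10 of 29) numbered 6 of 16 with a filter of 5 scaled CPM and 23 of 62 without a filter, against 23.2%, 23.3% and 23% of all genes. An alternative chosen after seeing the data left out an on-DMBA library, and this number was then 22 of 29 without replicate 1 (60.7% of all genes tested) and 27 without replicate 2 (84%). The median log2 difference of on-DMBA replicate 1 minus replicate 2 was -1.10 over the members tested and 0.05 over all genes tested. Over the members it was -0.62 with the filter of 5 and -0.44 without a filter. The replicate number as a block, although the numbers mark different mice and the deviations of same-numbered libraries had a correlation of 0.015 across genes, gave 1 called member and 288 called genes in place of 0. Of the 16 tested members with full values, the sign turned in Serpinb2 and Serpinb9 with median ratio scaling, in Serpinb5 with plain CPM, in Serpine2 with edgeR, in Serpinb9 and Serpine2 with DESeq2, in Serpinb2 without on-DMBA replicate 2, in Serpinb2 and Serpinb6a without 1-week replicate 1, and in Serpinb5 and Serpinb9 without 1-week replicate 2. The causes were not tested. With 2 mice per group the precision is limited by the spread between mice, and for genes of a few reads by depth.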
